A study of Mus musculus with 10 samples.

Results

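The genes described here encode the classical guidance families: semaphorins with their plexin and neuropilin receptors, ephrins with their Eph receptors, Slits with their Robo receptors, and netrins with their Unc5 receptors. Members were taken by gene symbol from a table of estimated counts per gene, and 67 of the 48795 listed genes belong to these families. They comprise 20 semaphorins, 9 plexins, 2 neuropilins, 5 ephrin-A and 3 ephrin-B ligands, 9 EphA and 5 EphB receptors, 3 Slits, 4 Robo receptors, 3 netrins and 4 Unc5 receptors. A gene was tested where at least 10 counts were found in 2 or more libraries, which 62 of the 67 members and 16797 of all listed genes met.

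Guidance molecules were named for steering axons and migrating cells, and most act by attraction or repulsion at short or long range. Semaphorins bind plexins, directly or, for most secreted class 3 members, through a neuropilin that forms part of the receptor. Ephrins are tethered to the cell surface, the A type by a lipid anchor and the B type by a transmembrane domain, and bind Eph receptor tyrosine kinases on neighbouring cells, with signals running in both directions. Slits are secreted proteins that repel Robo-bearing cells, and netrins attract through Dcc and repel through Unc5 receptors. In the subependymal zone, Slits and Robo receptors take part in the migration of neuroblasts towards the olfactory bulb, and ephrins and Eph receptors in the control of progenitor proliferation and neuroblast migration.

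RNA-seq had been carried out on cultures of neural stem and progenitor cells (NSC/NPCs) grown from the brain subependymal zone of mice aged 10 weeks. Proliferating cells (PRO) were neurospheres, floating aggregates kept for 3 days in vitro (DIV) by the labels and methods (5 days in another passage of the paper) with 20 ng/ml EGF and 10 ng/ml FGF. Differentiating cells (DIFF, 2 + 1 DIV) were seeded at 40000 cells/cm2 on Matrigel for 2 days with FGF and collected 24 h after the mitogens were withdrawn and 2% FBS was added. The study compared both stages in wild-type (WT) cultures and in cultures of p27KO mice, which are mutant for Cdkn1b, the gene of the cell cycle inhibitor p27, on a C57BL/6J background, to find what p27 does when cells leave the cycle. There were 3 WT libraries per stage and 2 libraries per stage labelled p27KO. Attachment, serum and mitogens all differ between PRO and DIFF, so that their parts in a stage difference cannot be told apart. The methods call the RNA-seq replicates biological, but the sources used here do not tie each library to a culture or animal, and p-values measure only the spread between these libraries.

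Total counts were 19190068, 25069860 and 21687332 in the WT PRO libraries and 19649261, 24128072 and 25291674 in the WT DIFF libraries. The libraries labelled p27KO had 24205236 and 20332078 counts in PRO and 25223929 and 22237950 in DIFF. Levels are given as CPM, the counts scaled to a common library total. Log2 fold changes are fitted values with a standard error (SE), and p-values are from edgeR's two-sided quasi-likelihood test, adjusted by Benjamini-Hochberg (BH) over the 16797 genes tested.

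The targeted gene was looked at first. Cdkn1b was at 103, 105 and 112 CPM in WT PRO and at 207, 205 and 209 CPM in WT DIFF. In the libraries labelled p27KO it was at 114 and 90.7 CPM in PRO and at 140.2 and 137 CPM in DIFF. Its transcript count was therefore not lost under the p27KO label: the PRO groups overlapped, and the DIFF groups differed by a log2 fold change of -0.56 ± 0.10 (SE; edgeR, BH-adjusted p = 0.0202). Which part of the gene the mutant allele lacks is not given in the sources used here, and the counts are for the whole gene. The free-text descriptions of these 4 samples also call the cells WT, whereas the genotype field and the titles give p27KO, so they are called the libraries labelled p27KO throughout. All WT libraries carried counts of 4 Y-linked genes (189 to 533 CPM summed) with Xist at 1.16 to 2.57 CPM, while the 4 libraries labelled p27KO had Xist at 2258 to 3595 CPM and the Y-linked genes at 0.148 to 0.585 CPM. Genotype and sex thus coincide and cannot be told apart in any comparison between WT and p27KO.

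In WT cultures, guidance genes rose more often than they fell on passing from PRO to DIFF. Of the 62 tested members, 29 rose and 12 fell (edgeR, BH-adjusted p under 0.05), or 46.8% and 19.4%, whereas 30.8% of all tested genes rose and 31.2% fell. The median log2 fold change was 0.67 over the tested members and 0.03 over all tested genes. The filter itself contributes to this: Sema3b, Sema3f, Sema4a, Sema4f, Epha3, Epha10, Slit3 and Robo4 reached 10 counts in 2 libraries only within DIFF, and Efna1 and Epha1 only within PRO, so that these 10 were tested only through 1 stage. Among the other 52 tested members, 22 rose and 11 fell (42.3% and 21.2%), with a median of 0.37. With the genes tested through 1 stage taken out in the same way, 29.0% of the remaining 14713 genes rose and 34.0% fell, with a median of -0.05. Receptor families had 17 of 30 tested members up and 6 down (56.7% and 20.0%), and ligand families 12 of 32 up and 6 down (37.5% and 18.8%). These counts again include the 10 members tested through 1 stage, and stand beside 30.8% and 31.2% of all tested genes. Receptors and ligands were not compared by a test.

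The stage changes in the libraries labelled p27KO were 26 members up and 8 down, against 24.3% of all tested genes up and 27.3% down, with a median log2 fold change of 0.59 over the members and -0.01 over all genes. These counts too include the 10 members tested through 1 stage. Without them 20 rose and 8 fell (38.5% and 15.4%), with a median of 0.38, beside 23.3% up, 29.7% down and a median of -0.07 over the 14713 genes. Of the 41 members called in WT, 34 were also called in p27KO in the same direction, 7 were called in WT alone, and no member was called in p27KO alone or in opposite directions. The matching share over all tested genes was not computed, so this overlap is not shown to be particular to guidance genes. Those called in WT alone were Plxna3, Epha10 and Ephb6, which rose, and Sema3c, Plxna2, Efna2 and Epha1, which fell. With the replicate block, Ephb6 and Plxna2 were also called in p27KO, and Sema5b in p27KO alone. A call in one genotype and not in the other does not show a difference between them, and the test of that difference, the interaction, called none of the 62 members. The plot of stage changes shows both genotypes side by side.

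**Figure D1:**
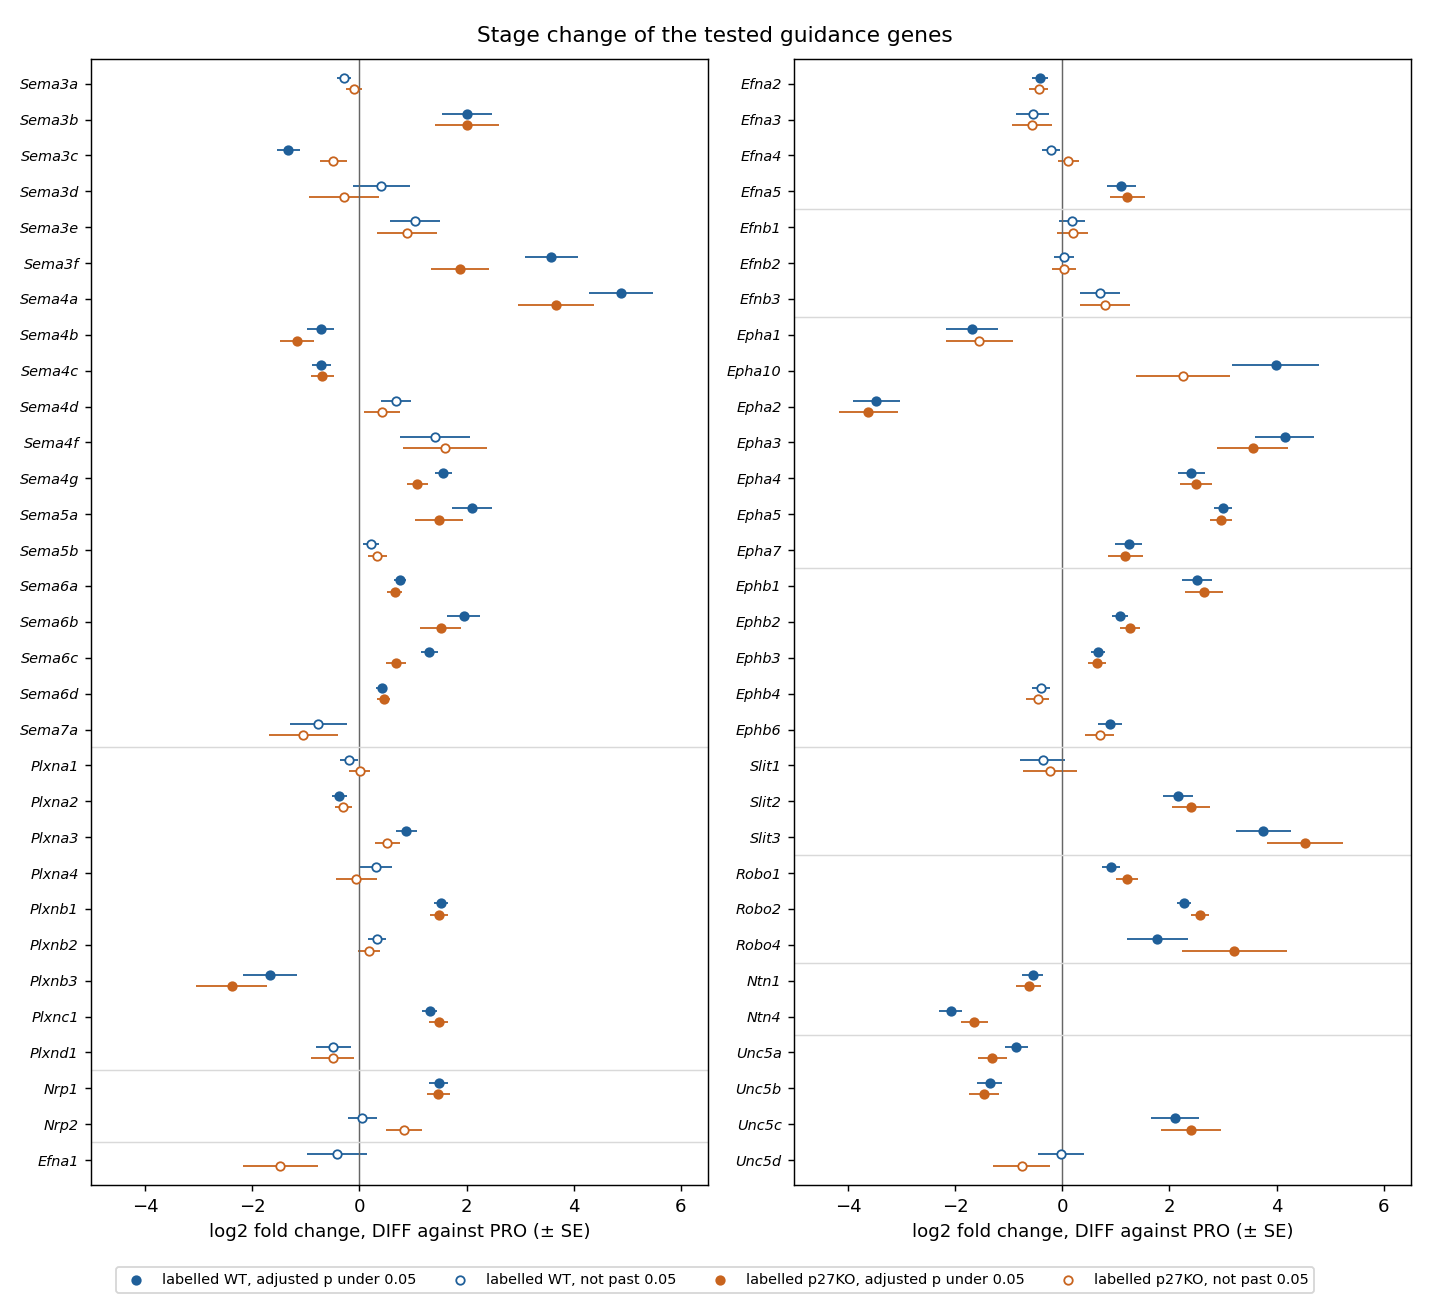
Log2 fold change from PRO to DIFF (x axis, ± SE) of the 62 tested guidance genes, grouped by family, in WT (blue, 3 libraries per stage) and in libraries labelled p27KO (orange, 2 per stage); filled points have a BH-adjusted p under 0.05. In WT 29 genes rose and 12 fell, from 4.89 for Sema4a to -3.47 for Epha2.

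Summed over all 67 members, guidance transcripts made up 2383 ± 144 CPM (SD, n = 3) in WT PRO and 4111 ± 290.2 CPM (SD, n = 3) in WT DIFF. The libraries labelled p27KO were at 2454 ± 358 CPM (SD, n = 2) in PRO and 4264 ± 240.4 CPM (SD, n = 2) in DIFF. By family, the largest sums in WT were those of the plexins, from 966 ± 77.9 to 1429 ± 205.5 CPM, and the semaphorins, from 742 ± 33.9 to 1141 ± 25.6 CPM (SD, n = 3 each). The sum of the EphA receptors went from 76.7 ± 8.38 to 520.4 ± 45.9 CPM in WT, that of the Robo receptors from 148 ± 17.7 to 445 ± 18.5 CPM, and that of the netrins from 227 ± 21.8 to 150.4 ± 32.3 CPM (SD, n = 3 each). These sums describe how the transcripts are divided among families and follow a few abundant genes in each.

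To compare levels between genes, CPM were divided by the length of all annotated exons in kb. On this scale Plxnb2 had the highest mean in every group, at 46.2 ± 6.14 CPM per kb (SD, n = 3) in WT PRO and 62.3 ± 13.9 in WT DIFF, where it was not separated from the next genes by more than their combined spread. In WT PRO it was followed by Ntn1 at 30.7 ± 3.05, Sema6d at 26.8 ± 1.69, Sema6a at 24.3 ± 0.808, Plxna1 at 19.2 ± 2.63 and Plxnb1 at 14.3 ± 0.266 CPM per kb, where Ntn1 and Sema6d lay within their combined spread. In WT DIFF the order after Plxnb2 was Sema6a at 44.2 ± 6.03, Plxnb1 at 44.1 ± 8.28, Sema6d at 38.4 ± 2.99, Epha5 at 24.8 ± 3.95 and Ntn1 at 22.6 ± 5.23 CPM per kb, and none of the neighbours Sema6a, Plxnb1 and Sema6d, nor Epha5 and Ntn1, were separated by more than their spread. Epha5 moved from rank 24 of the 67 members in WT PRO to rank 5 in WT DIFF. Union exon length understates genes whose cells use short transcripts, so these are levels of the annotated gene, not of an isoform.

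**Figure D2:**
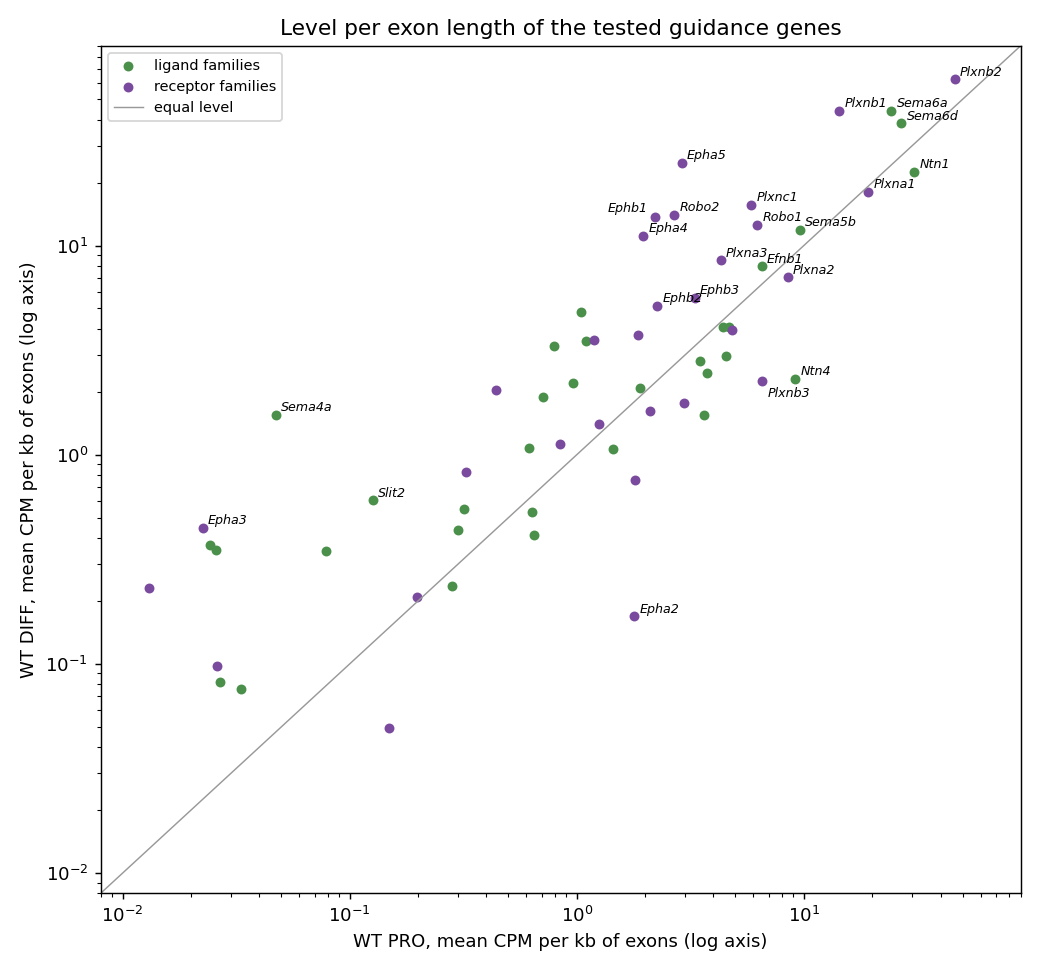
Mean level in WT DIFF (y axis) against WT PRO (x axis), both in CPM per kb of exons on log axes, for the 62 tested guidance genes, with ligand families in green, receptor families in purple and a line of equal level. Epha5 lies at 2.90 and 24.8 CPM per kb, and Epha2 at 1.78 and 0.169.

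The semaphorins were divided by class. All 4 class 6 genes, transmembrane ligands that signal through class A plexins, rose in both genotypes, whereas in each other class at least 1 gene was not called. Of the 19 tested semaphorins, 9 rose and 3 fell in WT, 47.4% and 15.8% beside 30.8% and 31.2% of all tested genes. Sema3b, Sema3f and Sema4a, which rose, and Sema4f passed the filter through DIFF libraries alone, and without these 4 the counts were 6 up and 3 down of 15 (40.0% and 20.0%, beside 29.0% and 34.0% of the 14713 genes). Sema6d (ENSMUSG00000027200; chromosome 2, 124089969 to 124667770, strand plus, GRCm38) was the semaphorin with the highest mean CPM over the 10 libraries, at 264, 299 and 286 CPM in WT PRO and 398, 440.3 and 379 CPM in WT DIFF. Its libraries labelled p27KO were at 265 and 329 CPM in PRO and 430.1 and 441 CPM in DIFF. Every DIFF library lay above every PRO library, with a log2 fold change of 0.42 ± 0.10 in WT (SE; edgeR, BH-adjusted p = 0.0059) and 0.45 ± 0.13 in p27KO (adjusted p = 0.0142). The p27KO call for Sema6d was lost when p27KO PRO replicate 1 (0.29), p27KO DIFF replicate 1 (0.46) or p27KO DIFF replicate 2 (0.44) was left out. Sema6a rose by 0.76, Sema6b by 1.95 and Sema6c by 1.31 on the log2 scale in WT. In p27KO the calls of Sema6b and Sema6c were lost without p27KO DIFF replicate 2 (1.13 and 0.59), that of Sema6b also without p27KO PRO replicate 2 (1.41) and that of Sema6c without p27KO PRO replicate 1 (0.58).

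In WT with all libraries, Sema4a, a class 4 semaphorin known from T cells and the retina, had the largest fitted rise of all members. It passed the filter through DIFF libraries alone, and the largest WT rise among members tested through both stages was that of Epha5 (3.00). Sema4a was at 0.313, 0.359 and 0.0922 CPM in WT PRO, which are 6, 9 and 2 counts, and at 15.3, 5.76 and 4.07 CPM in WT DIFF. The libraries labelled p27KO had 0.289 and 0.295 CPM in PRO and 3.57 and 4.54 CPM in DIFF. WT DIFF replicate 1 stood far above the other DIFF libraries, yet no PRO library came near the lowest of them. The log2 fold change in WT was 4.89 ± 0.60 (SE; edgeR, BH-adjusted p = 7.0e-05), and 4.16 without WT DIFF replicate 1, which brings the fold from 29.6 to 17.8. In p27KO it was 3.67 ± 0.72 (adjusted p = 0.00202).

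Sema3f, a secreted ligand of neuropilin 2, stood at 0.104, 0.16 and 0.138 CPM in WT PRO (2, 4 and 3 counts) and at 2.75, 1.53 and 1.19 CPM in WT DIFF. In the libraries labelled p27KO it was at 0.413 and 0.246 CPM in PRO and 0.952 and 1.71 CPM in DIFF. The groups did not overlap in either genotype, and the log2 fold change was 3.58 ± 0.50 in WT (SE; edgeR, BH-adjusted p = 1.3e-04) and 1.88 ± 0.54 in p27KO (adjusted p = 0.0148). The p27KO call was lost without p27KO DIFF replicate 2 (1.41) or without p27KO PRO replicate 2 (1.57). Sema5a, a transmembrane protein with thrombospondin repeats, was at 26.3, 17.3 and 14.8 CPM in WT PRO and 146, 53.4 and 71.0 CPM in WT DIFF. Here too WT DIFF replicate 1 was the highest library, and the groups did not overlap. Sema5a rose by 2.10 ± 0.37 in WT (edgeR, BH-adjusted p = 0.00132), with 20.7 and 18.2 CPM in PRO and 53.0 and 63.9 CPM in DIFF under the p27KO label, where the change was 1.49 ± 0.45 (adjusted p = 0.0238) and was no longer called when any of the 4 p27KO libraries was left out, with values from 1.35 to 1.61.

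The remaining semaphorins that rose in WT were Sema3b (2.01) and Sema4g (1.57), both also called in p27KO. The p27KO value of Sema3b, 2.01, was 2.85 without p27KO PRO replicate 2, and its call was lost without p27KO PRO replicate 1 (1.44) or p27KO DIFF replicate 1 (1.95). In WT those that fell were Sema3c (-1.32 ± 0.21, edgeR, BH-adjusted p = 3.4e-04), Sema4b (-0.72) and Sema4c (-0.71). Sema3c was at 28.1, 28.2 and 21.4 CPM in WT PRO and 8.04, 12.4 and 12.8 CPM in WT DIFF, while the libraries labelled p27KO were at 20.1 and 23.9 CPM in PRO and 19.7 and 14.0 CPM in DIFF. The fall of Sema4b in WT was not called without WT PRO replicate 1 (-0.74), WT PRO replicate 2 (-0.48), WT DIFF replicate 2 (-0.73) or WT DIFF replicate 3 (-0.53). In p27KO, Sema4b was at -1.17 and Sema4c at -0.69, both called. Without p27KO DIFF replicate 2 (-1.06 and -0.70) or p27KO PRO replicate 2 (-0.84 and -0.64) both calls were lost, and that of Sema4c also without p27KO DIFF replicate 1 (-0.68). Sema3a, Sema3d, Sema3e, Sema4d, Sema4f, Sema5b and Sema7a passed the test in neither genotype, with WT values from -0.77 for Sema7a to 1.42 for Sema4f. Some of these were called in WT in other settings: Sema3a with blocks within genotype (-0.28) and without WT PRO replicate 1 (-0.39), p27KO DIFF replicate 1 (-0.29) or p27KO DIFF replicate 2 (-0.29), Sema3e and Sema4d without WT DIFF replicate 3 (1.34 and 0.91), Sema4d also with DESeq2's size factors (0.70), the filter of the methods (0.78) and without p27KO PRO replicate 1 (0.69) or p27KO PRO replicate 2 (0.68), Sema4f without WT PRO replicate 2 (2.39) and Sema7a without WT DIFF replicate 1 (-1.40). In p27KO, Sema5b was called without p27KO PRO replicate 2 (0.58). Sema3g was not tested, with at most 5 counts in a library.

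Plexins, the receptors of semaphorins, included the guidance gene with the highest mean level per length. Of the 9 members, all tested, 3 rose and 2 fell in WT (33.3% and 22.2%, beside 30.8% and 31.2% of all tested genes), and 2 rose and 1 fell in p27KO (22.2% and 11.1%, beside 24.3% and 27.3%). Plxnb2 (ENSMUSG00000036606; chromosome 15, 89155549 to 89180788, strand minus) was at 339, 410.2 and 320.3 CPM in WT PRO and 602, 444 and 397 CPM in WT DIFF. Under the p27KO label it was at 333 and 444 CPM in PRO and 450.3 and 501 CPM in DIFF. WT PRO replicate 2 lay above the lowest DIFF library, and the log2 fold change of 0.33 ± 0.17 did not pass the test (SE; edgeR, BH-adjusted p = 0.117), although it did without WT DIFF replicate 3 (0.46).

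Plxnb1, a receptor of Sema4d, was at 134, 139 and 138 CPM in WT PRO and 511, 401 and 357 CPM in WT DIFF. Its values in libraries labelled p27KO were 114 and 129.9 CPM in PRO and 326 and 412 CPM in DIFF. The groups were far apart, and Plxnb1 rose by 1.52 ± 0.14 in WT (SE; edgeR, BH-adjusted p = 6.2e-06) and by 1.495 ± 0.17 in p27KO (adjusted p = 5.5e-05). Plxnc1, a receptor of Sema7a, was at 41.1, 61.6 and 44.0 CPM in WT PRO and 128, 135 and 129 CPM in WT DIFF. It was at 49.5 and 40.6 CPM in PRO and 129 and 141 CPM in DIFF under the p27KO label. The rise was 1.31 ± 0.14 in WT (edgeR, BH-adjusted p = 2.8e-05) and 1.48 ± 0.18 in p27KO (adjusted p = 9.0e-05), while its ligand Sema7a was at 3.02, 0.997 and 2.40 CPM in WT PRO and 2.39, 0.705 and 0.989 CPM in WT DIFF and not called (-0.77 ± 0.53).

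Plxnb3, a plexin known from oligodendrocytes, went the other way. It was at 21.4, 50.9 and 55.1 CPM in WT PRO and 26.3, 8.08 and 9.45 CPM in WT DIFF, so that WT PRO replicate 1 and WT DIFF replicate 1 overlapped. The p27KO-labelled libraries had 22.9 and 18.5 CPM in PRO and 3.69 and 4.86 CPM in DIFF, without overlap. The log2 fold change was -1.66 ± 0.51 in WT (SE; edgeR, BH-adjusted p = 0.0208) and -2.38 ± 0.66 in p27KO (adjusted p = 0.0172). With the replicate number as a block the WT value was -1.73 and not called (adjusted p = 0.0656). The WT call was also lost without WT DIFF replicate 2 (-1.37), WT DIFF replicate 3 (-1.42), WT PRO replicate 2 (-1.499) or WT PRO replicate 3 (-1.41), and without WT DIFF replicate 1 the fall was 5.14-fold in place of 3.16-fold. In p27KO the call was lost without p27KO DIFF replicate 1 (-2.20) or p27KO DIFF replicate 2 (-2.58), with the replicate block (-2.37, adjusted p = 0.0577) or block within genotype (-2.38, adjusted p = 0.0979), and with no filter (-2.37, adjusted p = 0.0617).

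Among the other plexins, Plxna3 rose in WT (0.88) and was also called in p27KO without WT DIFF replicate 1 (0.53), and Plxna2 fell (-0.37) with a call that was lost without WT PRO replicate 2 (-0.40), WT PRO replicate 3 (-0.19), WT DIFF replicate 1 (-0.29) or WT DIFF replicate 2 (-0.38). Plxna1, Plxna4 and Plxnd1 were not called in either genotype, with WT values from -0.48 for Plxnd1 to 0.31 for Plxna4, but Plxnd1 was called with replicate blocks within genotype (-0.52) and without WT DIFF replicate 1 (-0.84). Nrp1, the neuropilin that binds Sema3a and VEGF, was at 12.3, 12.6 and 9.91 CPM in WT PRO and 30.4, 41.2 and 32.5 CPM in WT DIFF. With the p27KO label, values were 11.9 and 17.6 CPM in PRO and 42.1 and 45.9 CPM in DIFF. All DIFF libraries were higher, by 1.48 ± 0.18 in WT (SE; edgeR, BH-adjusted p = 5.0e-05) and by 1.48 ± 0.22 in p27KO (adjusted p = 3.1e-04). Nrp2, the partner of Sema3f, had overlapping WT values, 13.7, 15.8 and 15.0 CPM in PRO and 23.3, 14.6 and 12.1 CPM in DIFF, and passed the test in neither genotype, but was called in p27KO without p27KO PRO replicate 2 (1.37), WT DIFF replicate 1 (0.84) or WT DIFF replicate 3 (0.84), by DESeq2 (0.86, adjusted p = 0.0297) and with the filter of the methods (0.91, adjusted p = 0.0469).

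Of the 8 ephrins, ligands of the Eph receptors, Efna5 rose and Efna2 fell in WT, and none of the 3 ephrin-B genes was called in either genotype. Over all tested genes, 30.8% rose and 31.2% fell in WT, and 24.3% and 27.3% in p27KO. Efna5 was the ephrin-A gene with the highest mean CPM over the 10 libraries, although Efna2 and Efna4 were higher in PRO, at 4.90, 3.67 and 3.09 CPM in WT PRO and 7.99, 12.2 and 6.52 CPM in WT DIFF. In libraries labelled p27KO it was at 5.41 and 5.36 CPM in PRO and 15.8 and 11.1 CPM in DIFF. No DIFF library was as low as a PRO library, and the log2 fold change was 1.10 ± 0.27 in WT (SE; edgeR, BH-adjusted p = 0.00502) and 1.22 ± 0.33 in p27KO (adjusted p = 0.0101), the latter lost without p27KO DIFF replicate 1 (0.93), p27KO PRO replicate 1 (1.22) or p27KO PRO replicate 2 (1.22). Efna2 was at 7.76, 6.94 and 7.65 CPM in WT PRO and 6.26, 5.14 and 6.60 CPM in WT DIFF, and at 7.97 and 6.74 CPM in PRO and 5.39 and 6.25 CPM in DIFF under the p27KO label. The WT groups did not overlap, but the fall of -0.42 ± 0.15 (edgeR, BH-adjusted p = 0.0322) was not called without WT PRO replicate 1 (-0.38), WT PRO replicate 3 (-0.38), WT DIFF replicate 1 (-0.42) or WT DIFF replicate 2 (-0.32).

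Efna1, Efna3 and Efna4 passed the test in neither genotype, with WT log2 fold changes of -0.41, -0.55 and -0.20, although without WT DIFF replicate 1 the value of Efna1 was -1.17 in WT, and in p27KO it was called (-1.47). Efnb1, the ephrin-B gene with the highest mean CPM, was at 29.0, 22.6 and 15.9 CPM in WT PRO and 26.0, 29.0 and 27.4 CPM in WT DIFF. The libraries labelled p27KO were at 15.0 and 26.6 CPM in PRO and 25.6 and 25.4 CPM in DIFF, and the groups overlapped in both genotypes. Its WT log2 fold change was 0.19 ± 0.24 (SE; edgeR, BH-adjusted p = 0.515). The values of Efnb2 and Efnb3 were 0.03 and 0.70, neither called, although Efna3 (-0.83) and Efnb3 (0.98) were called without WT DIFF replicate 1.

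All 7 tested EphA receptors passed the test in WT, 5 upward and 2 downward, beside 30.8% and 31.2% of all tested genes. Of these 7, Epha3, Epha10 and Epha1 were tested only because 1 stage reached the filter. Epha5 (ENSMUSG00000029245; chromosome 5, 84054761 to 84417382, strand minus), a receptor of A-type ephrins, was the EphA gene with the highest mean CPM. It was at 42.1, 47.5 and 55.8 CPM in WT PRO and 380.5, 492 and 375 CPM in WT DIFF. The libraries labelled p27KO were at 58.0 and 42.5 CPM in PRO and 419 and 424 CPM in DIFF. Both genotypes thus moved from about the same PRO level to about the same DIFF level, with a log2 fold change of 3.00 ± 0.17 in WT (SE; edgeR, BH-adjusted p = 2.9e-07), which is 7.997-fold, and 2.97 ± 0.20 in p27KO (adjusted p = 3.3e-06).

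Epha2 (ENSMUSG00000006445; chromosome 4, 141301240 to 141329384, strand plus), a receptor whose ligand is chiefly Efna1, fell the most of all members. It was at 13.4, 5.26 and 6.32 CPM in WT PRO and 0.458, 1.20 and 0.712 CPM in WT DIFF. Under the p27KO label it was at 7.15 and 10.4 CPM in PRO and 0.714 and 0.809 CPM in DIFF. No DIFF library was above 1.20 CPM and no PRO library below 5.26 CPM. The log2 fold change was -3.47 ± 0.45 in WT (SE; edgeR, BH-adjusted p = 9.0e-05) and -3.62 ± 0.55 in p27KO (adjusted p = 4.2e-04).

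Epha3 and Epha10 were close to absent in PRO. Epha3, which binds Efna5, had 2, 4 and 7 counts in the WT PRO libraries and 103, 92 and 65 in the WT DIFF libraries, or 0.104, 0.16 and 0.323 against 5.24, 3.81 and 2.57 CPM. The p27KO-labelled libraries had 0.207 and 0.246 CPM in PRO and 1.47 and 4.36 CPM in DIFF. It rose by 4.16 ± 0.55 in WT (SE; edgeR, BH-adjusted p = 9.4e-05) and by 3.55 ± 0.66 in p27KO (adjusted p = 0.00133), where the value was 2.58 without p27KO DIFF replicate 2 and 4.14 without p27KO DIFF replicate 1. Epha10, a receptor without kinase activity, had 1, 0 and 5 counts in the WT PRO libraries and 51, 36 and 23 in the WT DIFF libraries, and 8 and 2 counts in PRO and 22 and 32 in DIFF under the p27KO label. Its rise in WT was 3.99 ± 0.81 (edgeR, BH-adjusted p = 0.00165), and 5.79 without WT PRO replicate 3 or 3.37 without WT PRO replicate 2, and its p27KO value of 2.26 ± 0.88 was not called (adjusted p = 0.0532), although it was without WT PRO replicate 2 (2.27), WT PRO replicate 3 (2.27) or WT DIFF replicate 1 (2.27), by DESeq2 (2.33), with no filter (2.27) and in the fit of the p27KO groups alone (2.29). Without p27KO PRO replicate 1 the value was 3.37.

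Epha4 and Epha7 also rose in both genotypes, by 2.41 and 1.24 in WT. The p27KO call of Epha7 was lost without p27KO DIFF replicate 2 (0.88) or p27KO PRO replicate 2 (1.06). Epha4, which binds ephrins of both types, was at 18.3, 10.8 and 18.2 CPM in WT PRO and 83.5, 66.4 and 119.7 CPM in WT DIFF. Epha1 fell in WT (-1.69 ± 0.48, edgeR, BH-adjusted p = 0.0117) from 14, 13 and 11 counts to 5, 5 and 3 counts per library. Epha6 and Epha8 were not tested, with at most 2 counts in a library.

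EphB receptors, which bind B-type ephrins, rose in 4 of 5 cases in WT and in 3 of 5 in p27KO, and none fell, where 30.8% of all tested genes rose and 31.2% fell in WT, and 24.3% rose and 27.3% fell in p27KO. Ephb1 was at 17.5, 14.9 and 14.0 CPM in WT PRO and 145, 62.9 and 78.0 CPM in WT DIFF. With the p27KO label, values were 9.38 and 10.97 CPM in PRO and 66.7 and 69.7 CPM in DIFF. WT DIFF replicate 1 was again the highest, and without it the fold was 4.31 in place of 5.72. The log2 fold change was 2.52 ± 0.28 in WT (SE; edgeR, BH-adjusted p = 5.6e-05) and 2.65 ± 0.35 in p27KO (adjusted p = 2.7e-04).

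Ephb2, a receptor with roles in axon pathways and synapses, was at 30.2, 25.01 and 30.4 CPM in WT PRO and 72.9, 53.0 and 68.9 CPM in WT DIFF. Its values under the p27KO label were 23.3 and 29.2 CPM in PRO and 57.6 and 77.4 CPM in DIFF. It rose by 1.08 ± 0.15 in WT (SE; edgeR, BH-adjusted p = 1.6e-04) without overlap of the groups. Ephb6, which lacks kinase activity, was at 7.76, 8.06 and 5.21 CPM in WT PRO and 15.0, 16.1 and 10.9 CPM in WT DIFF, and at 6.28 and 8.31 CPM in PRO and 14.4 and 10.97 CPM in DIFF under the p27KO label. It rose by 0.90 ± 0.22 in WT (edgeR, BH-adjusted p = 0.00541), whereas the p27KO value of 0.70 ± 0.27 was not called (adjusted p = 0.0533), but was in most other fits of all p27KO libraries, among them DESeq2 (0.72), the filter of the methods (0.77), the replicate block (0.70) and without WT DIFF replicate 3 (0.70) or WT PRO replicate 3 (0.71). Ephb3 rose in both genotypes (0.66 in WT and 0.65 in p27KO, the latter lost without p27KO PRO replicate 1 at 0.46). Ephb4, best known from veins, was at -0.40 in WT and not called, but was called at -0.40 with the replicate block and at -0.51 without WT DIFF replicate 2, at -0.38 without p27KO PRO replicate 1 and at -0.40 without p27KO PRO replicate 2. In p27KO it was called without p27KO PRO replicate 1 (-0.76).

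**Figure D3:**
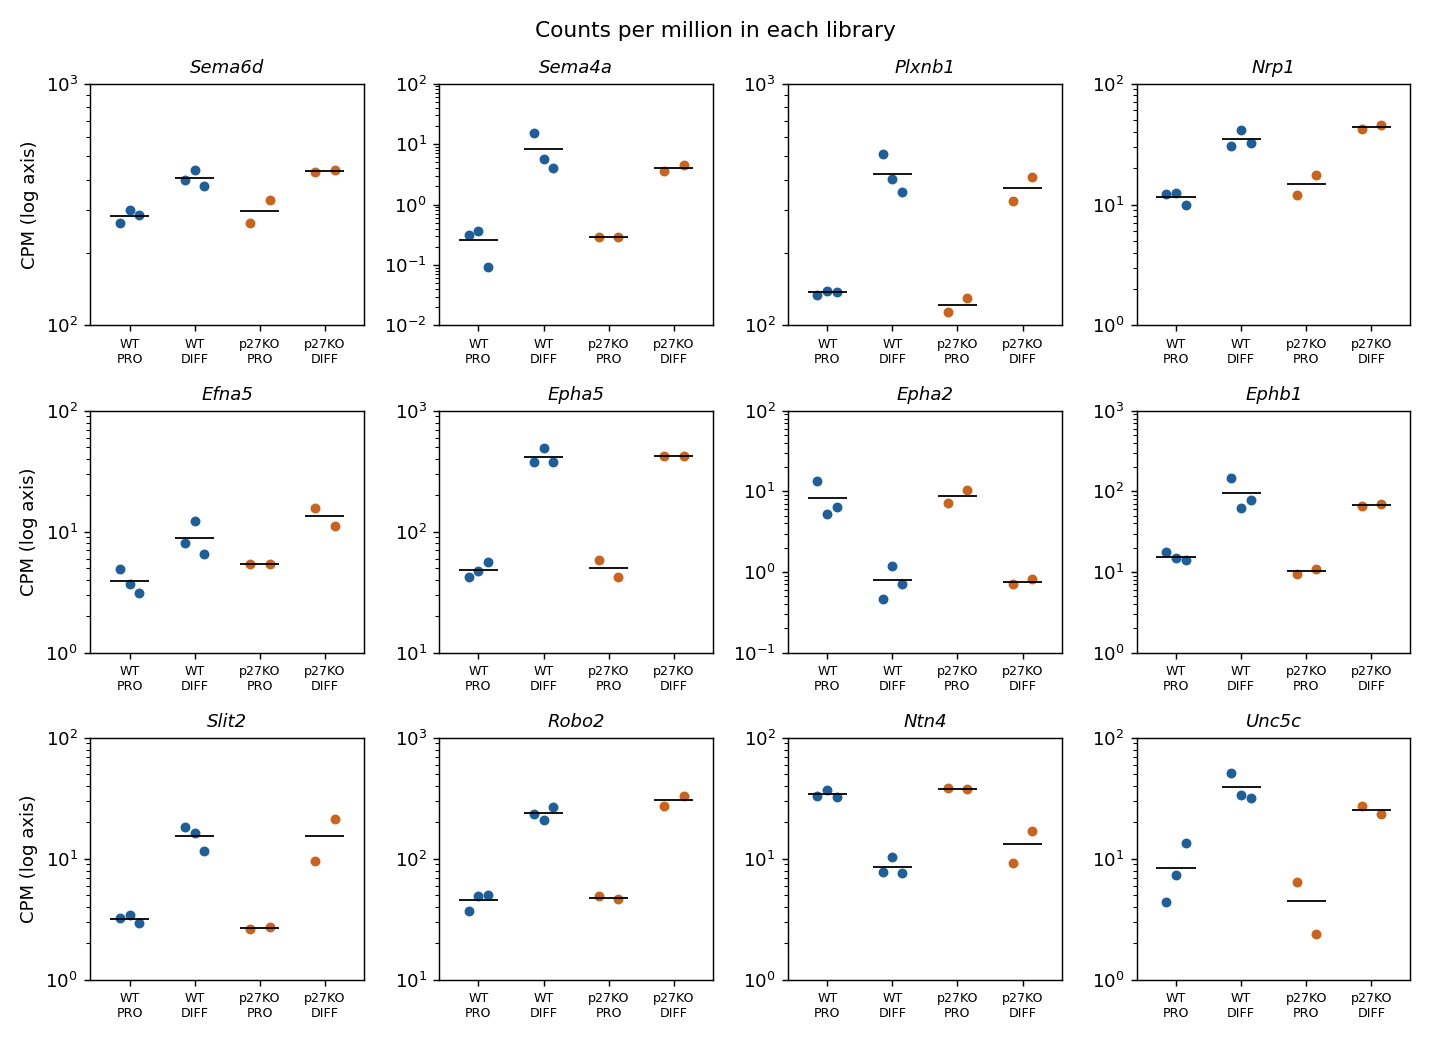
CPM in each library (y axis, log scale) for 12 guidance genes in WT PRO, WT DIFF (3 libraries each, blue) and in PRO and DIFF libraries labelled p27KO (2 each, orange), with horizontal lines at the group means. Epha5 rose from 42.1 to 55.8 CPM in WT PRO to 375 to 492 CPM in WT DIFF, whereas Epha2 and Ntn4 fell.

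Of the tested Slits and Robo receptors, all but Slit1 were called up in both genotypes, among them Slit3 and Robo4, which passed the filter through DIFF libraries alone. Of all tested genes, 30.8% were called up in WT and 24.3% in p27KO. Slit2, a secreted repellent, was at 3.23, 3.43 and 2.95 CPM in WT PRO and 18.2, 16.4 and 11.7 CPM in WT DIFF. Under the p27KO label it was at 2.64 and 2.75 CPM in PRO and 9.55 and 21.2 CPM in DIFF. No PRO library exceeded 3.43 CPM and no DIFF library was below 9.55 CPM, with a log2 fold change of 2.16 ± 0.28 in WT (SE; edgeR, BH-adjusted p = 9.9e-05) and 2.40 ± 0.35 in p27KO (adjusted p = 3.3e-04), or 1.73 without p27KO DIFF replicate 2. Slit3 had 2, 5 and 3 counts in the WT PRO libraries and 50, 63 and 40 in the WT DIFF libraries, and under the p27KO label 3 and 0 counts in PRO and 43 and 41 in DIFF. It rose by 3.75 ± 0.51 in WT (edgeR, BH-adjusted p = 1.2e-04) and passed the test in p27KO (adjusted p = 4.6e-04), for which no fold is given with 3 counts in all of its PRO libraries. Slit1 overlapped between the stages, at 3.13, 5.38 and 2.81 CPM in WT PRO and 1.58, 3.77 and 4.07 CPM in WT DIFF, and was not called in either genotype.

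Robo2 (ENSMUSG00000052516; chromosome 16, 73891839 to 74411825, strand minus) was at 37.4, 49.3 and 50.2 CPM in WT PRO and 234, 211 and 268 CPM in WT DIFF. In libraries labelled p27KO it was at 49.2 and 46.4 CPM in PRO and 275 and 334 CPM in DIFF. No DIFF library was below 211 CPM and no PRO library above 50.2 CPM. The log2 fold change was 2.27 ± 0.14 in WT (SE; edgeR, BH-adjusted p = 4.1e-07) and 2.57 ± 0.17 in p27KO (adjusted p = 2.4e-06). Robo1 had the highest mean CPM of the Robo genes over the 10 libraries, although Robo2 was higher in DIFF on average. It was at 105, 119 and 83.8 CPM in WT PRO and 200.7, 222 and 198 CPM in WT DIFF, and at 111 and 121 CPM in PRO and 225 and 353 CPM in DIFF under the p27KO label. It rose by 0.91 ± 0.17 in WT (edgeR, BH-adjusted p = 0.00107) and by 1.21 ± 0.21 in p27KO (adjusted p = 9.4e-04). Robo4, the Robo of blood vessels, had 3, 3 and 3 counts in the WT PRO libraries and 13, 14 and 8 in the WT DIFF libraries. It was called at 1.77 ± 0.57 in WT (adjusted p = 0.0202) and also in p27KO, where PRO held 0 and 1 counts. Without WT DIFF replicate 1 or WT DIFF replicate 2 it no longer met the filter, and it was not called without WT PRO replicate 2 (1.68), with replicate blocks within genotype (1.74) or by DESeq2 (1.83). The p27KO call was lost by DESeq2, in the fit of the p27KO groups alone, and without p27KO PRO replicate 1 or p27KO DIFF replicate 1. Robo3 was not tested, with 5, 3 and 7 counts in WT PRO, 3, 0 and 1 in WT DIFF, and 3 and 8 in PRO and 0 and 0 in DIFF under the p27KO label. With no filter it was called down in p27KO (edgeR, BH-adjusted p = 0.0204).

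The 2 tested netrins were both called down in both genotypes, beside 31.2% of all tested genes in WT and 27.3% in p27KO, Ntn1 with a call that many settings lost. Ntn1, a secreted attractant and repellent, was at 190.2, 213 and 175 CPM in WT PRO and 179, 123 and 122 CPM in WT DIFF. The p27KO-labelled libraries had 133 and 211 CPM in PRO and 125 and 114 CPM in DIFF. WT DIFF replicate 1 lay within the range of the PRO libraries, and the fall of -0.55 ± 0.19 in WT (SE; edgeR, BH-adjusted p = 0.0312) was not called without WT PRO replicate 1 (-0.55), WT PRO replicate 2 (-0.46), WT DIFF replicate 2 (-0.47) or WT DIFF replicate 3 (-0.44). In p27KO the value was -0.63 ± 0.24 (adjusted p = 0.0496), and the call was lost with DESeq2's size factors (-0.60) and in most other settings, among them without p27KO PRO replicate 2 (-0.25).

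Ntn4, a netrin of basement membranes, was at 32.8, 37.3 and 32.4 CPM in WT PRO and 7.84, 10.4 and 7.67 CPM in WT DIFF. Its values under the p27KO label were 38.3 and 38.0 CPM in PRO and 9.24 and 17.1 CPM in DIFF. The groups lay well apart in both genotypes, with a log2 fold change of -2.08 ± 0.21 in WT (SE; edgeR, BH-adjusted p = 1.8e-05) and -1.64 ± 0.26 in p27KO (adjusted p = 4.9e-04). Ntn5 was not tested, with 5, 1 and 4 counts in the WT DIFF libraries and 0 in every other library. With no filter it was called up in WT (edgeR, BH-adjusted p = 0.046), for which no fold is given.

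The Unc5 receptors, through which netrins repel, split in direction. Unc5c was at 4.38, 7.34 and 13.5 CPM in WT PRO and 51.0, 33.9 and 32.1 CPM in WT DIFF. With the p27KO label, values were 6.49 and 2.41 CPM in PRO and 27.3 and 23.5 CPM in DIFF. It rose by 2.11 ± 0.45 in WT (SE; edgeR, BH-adjusted p = 0.00332) and by 2.40 ± 0.57 in p27KO (adjusted p = 0.00745), or by 3.29 without p27KO PRO replicate 1. Unc5b, also known from the endothelium, was at 13.6, 10.1 and 10.1 CPM in WT PRO and 5.50, 5.26 and 3.44 CPM in WT DIFF, and at 10.00 and 15.0 CPM in PRO and 4.68 and 5.04 CPM in DIFF under the p27KO label. It fell without overlap, with -1.35 ± 0.23 in WT (edgeR, BH-adjusted p = 5.3e-04) and -1.46 ± 0.28 in p27KO (adjusted p = 0.00165).

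Unc5a was at 12.6, 13.5 and 11.1 CPM in WT PRO and 9.06, 6.42 and 6.60 CPM in WT DIFF. The libraries labelled p27KO were at 9.71 and 16.5 CPM in PRO and 5.23 and 6.16 CPM in DIFF. Every DIFF library was below every PRO library, and the change was -0.86 ± 0.21 in WT (SE; edgeR, BH-adjusted p = 0.0052) and -1.30 ± 0.26 in p27KO (adjusted p = 0.00221). Unc5d stayed between 1.41, 1.44 and 2.63 CPM in WT PRO and 1.58, 2.32 and 1.86 CPM in WT DIFF and was not called.

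Whether the stage changes differed with genotype was asked with the interaction. None of the 62 tested members passed it (edgeR, BH-adjusted p = 1 for the lowest) while 0.28% of all tested genes did. That share of all genes was 0% without any 1 of the WT PRO libraries and 0.52% without WT DIFF replicate 1. With all libraries, 3 members (4.84%) had an unadjusted p under 0.05, beside 3.88% of all tested genes. DESeq2 called 0 members there and 1.00% of all tested genes. Those 3 were Sema3c, which stood at -1.32 in WT and -0.48 in p27KO, Sema6c at 1.31 and 0.69, and Sema3f at 3.58 and 1.88. Direct comparison of p27KO with WT called none of the members in DIFF either (lowest adjusted p = 0.217, edgeR with BH), with 1.49% of all tested genes called. At an unadjusted p under 0.05 there were 11 (17.7%), beside 12.5% of all tested genes. DESeq2, which called 3.91% of all tested genes, called 1 member, Epha4 (0.80 ± 0.26 in edgeR). Epha4 was at 83.5, 66.4 and 119.7 CPM in WT DIFF and 168 and 140.4 CPM in the DIFF libraries labelled p27KO. With the replicate block, edgeR called Epha4 (1.01, BH-adjusted p = 0.012) and Plxna2 (0.51, adjusted p = 0.0413), beside 2.10% of all tested genes. That block gives libraries of the same number a shared effect across WT and p27KO. No label or method links them, so these calls rest on an assumed pairing. In PRO no member was called (lowest adjusted p = 1), while 0.0536% of all tested genes were called, and 4 (6.45%) had an unadjusted p under 0.05, beside 4.55% of all tested genes. DESeq2 called 0 members in PRO and 0.286% of all tested genes. The 3 members on the X chromosome, Plxna3, Plxnb3 and Efnb1, had DIFF differences of -0.26, -1.74 and -0.09. With 2 libraries per stage under the p27KO label, these results do not show that the genotypes were alike.

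The co-receptors, other guidance ligands and effectors that work with these families were described from a list of 79 genes, of which 76 were tested. In WT 27 rose and 27 fell (edgeR, BH-adjusted p under 0.05), 35.5% each and near the 30.8% and 31.2% of all tested genes, with a median log2 fold change of -0.15. In p27KO 25 rose and 21 fell, 32.9% and 27.6% beside 24.3% and 27.3% of all tested genes. The 20 tested co-receptors and other ligands had 10 up and 4 down in WT, and the 56 tested effectors 17 up and 23 down. Draxin, a secreted repellent that binds Dcc, was at 2.14, 2.23 and 3.32 CPM in WT PRO and 172, 154 and 179 CPM in WT DIFF, and rose by 5.93 ± 0.20 (SE; edgeR, BH-adjusted p = 2.3e-08), or 60.9-fold. Rgma, a ligand of neogenin, was at 51.1, 43.2 and 45.6 CPM in WT PRO and 460.4, 409.7 and 437 CPM in WT DIFF, a rise of 3.12 ± 0.12 (adjusted p = 4.1e-08). Dscaml1, an adhesion protein of the Dscam family, went from 6.36, 5.26 and 9.96 to 66.2, 34.3 and 45.0 CPM (2.65 ± 0.33). These 3 rose in p27KO as well, by 5.46, 2.94 and 2.05.

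Among the falling genes of this list, Sdc3, a heparan sulphate proteoglycan, was at 844, 769 and 581 CPM in WT PRO and 343, 266 and 245 CPM in WT DIFF (-1.47 ± 0.18; SE, edgeR, BH-adjusted p = 7.6e-05), and Mical2, an actin-oxidising enzyme of the plexin pathway, at 23.1, 19.7 and 20.2 and 9.52, 8.87 and 7.43 CPM (-1.39 ± 0.22). Dcc, the attractive netrin receptor, was at 21.2, 29.2 and 31.3 CPM in WT PRO and 25.4, 27.5 and 35.9 CPM in WT DIFF and was not called (0.01 ± 0.26). Between genotypes in DIFF 1 gene of the list was called (edgeR, BH-adjusted p under 0.05), 1.32% beside 1.49% of all tested genes. That call was lost without WT PRO replicate 1, WT PRO replicate 2 or WT PRO replicate 3, which brings the count to 0. It was also lost in the fit of the DIFF groups alone and without p27KO DIFF replicate 1 or p27KO DIFF replicate 2. The log2 fold change of that gene was 0.59 to 0.70 in the fits that lost the call. Mical2, not called by edgeR in this DIFF comparison, was called lower by DESeq2 (-1.20, adjusted p = 7.0e-04). It was also called lower by edgeR with no filter (-1.20) or without p27KO DIFF replicate 2 (-1.82). In the interaction none of the list was called (edgeR, beside 0.28% of all tested genes), and 2 genes (2.63%) had an unadjusted p under 0.05, beside 3.88% of all tested genes. In PRO none was called by edgeR either, beside 0.0536%, and 6 (7.89%) had an unadjusted p under 0.05, beside 4.55%. DESeq2 called 0 genes of the list in both.

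Some markers of neural cell types changed with the stage. Their WT calls stand beside 30.8% of all tested genes up and 31.2% down. The 8 astrocyte markers summed to 1308, 1264 and 1175 CPM in WT PRO and 3485, 3462 and 2945 CPM in WT DIFF, with 5 up and 0 down, Aldoc the most abundant and Gfap at 0.625, 0.199 and 1.01 against 94.3, 90.9 and 146 CPM. The 12 neuroblast and neuron markers summed to 1311, 1259 and 1519 and 1522, 1615 and 1747 CPM, with 3 of 11 tested up, Map2 most abundant and Dcx at 0.834, 0.279 and 3.18 against 55.9, 14.5 and 35.1 CPM. The 10 oligodendroglial markers went from 2215, 2361 and 1837 to 1181, 929 and 1141 CPM, with 4 up and 3 down of 8 tested and Olig1 most abundant. The 10 stem and progenitor markers stood at 7362, 8305 and 7804 CPM in PRO and 7538, 8162 and 9181 CPM in DIFF, with 6 up and 2 down and Vim most abundant, whereas Nes went from 1669, 2012 and 1515 to 238, 190.5 and 156 CPM. All 6 cycling markers, Mki67 the most abundant, fell, from 2288, 2273 and 2441 to 289, 160.2 and 264 CPM in WT. In DIFF they summed to 819.5 and 715 CPM under the p27KO label. There all 6 were called higher than in WT, beside 1.49% of all tested genes called in either direction. In bulk cultures, fewer cells of a type and less RNA per cell cannot be told apart, and the part of these shifts in the guidance genes was not tested.

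Markers of blood vessel, mural and immune cells had few counts beside those of neural cells. Their calls in WT stand beside the same 30.8% up and 31.2% down of all tested genes. The 8 endothelial markers summed to 49.1, 12.4 and 15.4 CPM in WT PRO and 4.53, 1.62 and 1.54 CPM in WT DIFF, mainly Flt1, with Cdh5 and Cldn5 at 0 in every library and 1 of 2 tested down. Whether such cells contribute to Robo4, Unc5b or Ephb4 was not tested. The 9 markers of pericytes, smooth muscle and fibroblasts went from 3.54, 2.59 and 2.72 to 30.9, 30.6 and 69.4 CPM in WT, led by Acta2, with 2 of 4 tested up. Under the p27KO label they summed to 1.74 and 2.51 CPM in PRO and 38.0 and 99.4 CPM in DIFF. The 8 microglia and macrophage markers summed to at most 0.663 CPM, none tested, P2ry12 the most abundant and C1qa at 0. The 6 ependymal markers, mainly Foxj1, summed to 24.0, 18.9 and 16.3 CPM in PRO and 106, 89.0 and 88.3 CPM in DIFF, with 1 of 3 tested up.

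Several members sit beside each other in the genome. Efna1, Efna3 and Efna4 lie on chromosome 3 in this order, with gaps of 32.8 kb and 10.4 kb between them (GRCm38), and none was called. Sema3b and Sema3f are 72.3 kb apart on chromosome 9, and both rose in WT. Robo1 and Robo2, on chromosome 16, are 846 kb apart and both rose, and Robo4 and Robo3, on chromosome 9, are 0.554 kb apart on opposite strands. Other neighbours moved in opposite directions in WT. Plxnb3, which fell, and Plxna3, which rose, are 557 kb apart on chromosome X. Ephb6, which rose, and Epha1, which fell, are 738 kb apart on chromosome 6. Whether neighbours change alike was not tested. Sema3d, Sema3a and Sema3e follow each other on chromosome 5 with gaps of 536 kb and 423 kb, and none of these 3 was called. Exons of 17 members overlap those of another annotated gene, by more than 300 bases in 4 of them (Plxna1 970, Ntn5 519, Efna3 344 and Sema4c 334 bases). Whether strand was used in counting is not given in the sources used here, so reads of such pairs cannot be told apart.

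Promoters of the members were searched for short motifs. RefSeq promoter windows (GRCm38.p6; 250 bases before to 50 after the start) were matched for 58 of the 67 members, with 74 windows in all. Searched on both strands were a SOX-type motif, ACAATG, an ETS-type motif, CCGGAAGT, and the E2F-type motifs TTTGGCGC and TTTCCCGC. ACAATG was in 8 of the 74 windows (10.8%) beside 12.6% of all 32851 promoters. The ETS letters were in 0 of 74 beside 3.89% of all promoters, and the E2F letters in 0 beside 1.56%. Members that rose in WT held ACAATG in 3 of 35 windows, and those that fell in 3 of 13. The sequences are the 250 bases before the start for Epha5 and Epha2, EphA receptors that moved in opposite directions, and for Plxnc1, which rose, and Ntn4, which fell, both with a SOX-type motif. They were chosen after their values were seen, no annotated exon lies in these windows (that of Ntn4 lies within the gene, after a further annotated start and in an intron of that transcript), and capitals mark ACAATG, which starts 125 bases before the start in Plxnc1 and 153 in Ntn4.
Epha5 (chr5:84417383-84417632, minus strand): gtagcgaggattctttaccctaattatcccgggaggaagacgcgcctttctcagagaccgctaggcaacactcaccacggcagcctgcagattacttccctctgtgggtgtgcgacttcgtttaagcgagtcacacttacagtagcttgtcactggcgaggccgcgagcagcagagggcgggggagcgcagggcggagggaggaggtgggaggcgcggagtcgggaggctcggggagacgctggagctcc
Epha2 (chr4:141300971-141301220, plus strand): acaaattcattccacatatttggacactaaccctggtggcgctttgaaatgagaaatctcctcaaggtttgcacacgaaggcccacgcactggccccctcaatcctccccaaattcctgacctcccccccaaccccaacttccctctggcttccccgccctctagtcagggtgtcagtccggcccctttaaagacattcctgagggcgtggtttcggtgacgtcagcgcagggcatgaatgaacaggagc
Plxnc1 (chr10:94944846-94945095, minus strand): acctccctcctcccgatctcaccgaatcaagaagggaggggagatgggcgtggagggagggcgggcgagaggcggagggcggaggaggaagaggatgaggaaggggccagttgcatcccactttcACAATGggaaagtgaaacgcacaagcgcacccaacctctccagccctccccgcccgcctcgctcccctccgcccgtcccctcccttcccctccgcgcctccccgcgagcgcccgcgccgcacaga
Ntn4 (chr10:93640799-93641048, plus strand): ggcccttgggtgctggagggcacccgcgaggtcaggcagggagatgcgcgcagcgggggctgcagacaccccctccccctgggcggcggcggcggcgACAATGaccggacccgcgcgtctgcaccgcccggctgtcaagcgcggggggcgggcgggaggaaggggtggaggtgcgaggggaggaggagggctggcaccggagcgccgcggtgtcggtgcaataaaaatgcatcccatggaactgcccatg
The share of G and C was 62.4% in Epha5, 55.6% in Epha2, 68.8% in Plxnc1 and 73.2% in Ntn4, with 20, 9, 22 and 26 CG pairs. A match describes these letters only, and the absence of one says nothing of the factor.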

How the data were processed

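The authors aligned reads with STAR and deposited RSEM's estimated counts per gene, as whole numbers without normalization. FastQC, Trimmomatic, cutadapt and DESeq2, and the builds GRCm38 and mm10, are also named in the submitters' processing notes, without versions. Titles matched each of the 10 columns to its sample. Symbols, positions and exon lengths were matched for 48349 of 48795 genes (GENCODE M21, GRCm38). Counts were fitted with edgeR 4.0.16 (limma 3.58.1, R 4.3.3) as 4 groups in 1 robust quasi-likelihood model with TMM, after a filter of 10 counts in 2 libraries; the filter in the study's methods (a gene dropped if under 1 CPM in 4 or more libraries) was an alternative. Tests were two-sided with Benjamini-Hochberg adjustment over all 16797 genes and a threshold of 0.05. DESeq2 1.42.0 was an alternative. The steps were tested on simulated counts.

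Members and lists were chosen with earlier results of these data known. Values in every library are given, per family, for the tested member with the highest mean CPM and for up to 3 called members with the largest WT change and at least 1 CPM in the higher group. From the co-receptor and effector list, the 4 largest rises and 4 largest falls in WT with a mean of at least 10 CPM come under the rule; some of these, and 1 of the motifs searched, are not reported here. Genes named beyond this rule, some of them by call alone, were chosen after their values were seen. Among those given with values per library are Epha1, Epha4, Nrp2, Robo3, Robo4, Sema3c, Sema7a, Slit1, Unc5d and Dcc. Marker lists cover stem and progenitor cells, astrocytes, neuroblasts and neurons, the oligodendroglial lineage, endothelial, mural, microglial and ependymal cells, sex-linked genes and cycling cells.

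Replicate numbers were checked for pairing by the correlation across genes of deviations from group means. Same-numbered WT libraries of the 2 stages correlated at 0.162, 0.221 and 0.233 and others at -0.156 to -0.0508. Deviations from a group mean cancel within the group, so positive same-numbered values push the others down. The replicate block gave all libraries of a number, WT and p27KO alike, a shared effect. Neither labels nor methods say what the numbers mark or link WT to p27KO libraries. In blocks within genotype, numbers were paired only inside a genotype. Chi-square per gene between replicates was 12.1 to 52.5, far above counting noise, and no library was a copy of another. Spread among libraries sets most of the precision, with counting error added for genes of few counts. Tables and plots used Python 3.11.15, pandas 2.3.3 and matplotlib 3.10.9.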

Additional observations from a re-analysis of the deposited data

How the results depend on the processing

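Each count was recomputed with DESeq2's size factors in edgeR, DESeq2, the filter of the methods, no filter, separate fits of each group pair, a log2 fold minimum of 1, replicate blocks, and each of the 10 libraries left out. The interaction was not recomputed in separate fits, nor the direct comparisons of genotypes with blocks within genotype. All 75 stage changes of called members (41 in WT, 34 in p27KO) kept their sign in every setting that gave a value, and 54 of them stayed past the threshold wherever tested, apart from the fold minimum, of which 42 were tested in every setting. These 75 were chosen by their calls in the same libraries, which favours a kept sign. The same counts were not made over all called genes. With the filter of the methods, 6 members fell in WT in place of 12, since Epha1 and Epha2 were not tested there and Sema4b, Plxna2, Efna2 and Ntn1 did not pass. With the fold minimum, 6 members fell in WT, 17 genes of the co-receptor and effector list rose and 7 fell in WT, and 16 rose and 8 fell in p27KO. Without 1 library, 4 to 9 members fell in p27KO in place of 8, the lowest being without p27KO DIFF replicate 2. The WT median of 0.67 was 0.50 with the filter of the methods and 0.52 without WT DIFF replicate 1, and the p27KO median of 0.59 was 0.42 with no filter and 0.43 to 0.79 without 1 library. Where a p27KO library is left out, the lone remaining library is assumed to vary like the other groups.

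Between genotypes in DIFF, DESeq2 called 1 member higher (Epha4) and the replicate block 2 (Epha4 and Plxna2), in place of 0. The block assumes that same-numbered WT and p27KO libraries belong together, which no label states. Of the co-receptor and effector list, 0 to 1 genes were called higher when a library was left out and 0 in the fit of the 2 groups or with the fold minimum, in place of 1. Lower calls numbered 1 with DESeq2, with no filter and with the replicate block, and 0 to 1 without a library, in place of 0.

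With the replicate block 29 members rose and 12 fell in WT, and 28 rose and 7 fell in p27KO; it changed the WT calls of Plxnb3 and Ephb4, and in p27KO those of Ephb6, Sema5b, Plxna2, Plxnb3 and Ntn1. Blocks within genotype gave 28 up and 14 down in WT. Same-numbered p27KO libraries correlated at -0.118, and with their numbers crossed, a setting chosen after seeing the data, 29 members rose and 9 fell in p27KO. There the p27KO calls of Plxnb3 (-2.38) and Unc5c (2.485) were lost, and Sema7a, Plxna3, Plxnd1, Nrp2, Epha10 and Ephb6 were called. Also chosen after seeing the data was the count without the 10 members that passed the filter through 1 stage, which gave 22 up and 11 down in WT, and 20 up and 8 down in p27KO. Depth limits the members with under 10 counts in PRO, whose fold changes rest on few reads.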

Other observations

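The WT DIFF libraries differed among themselves in these genes. Of the 62 tested members, WT DIFF replicate 1 had the highest CPM of the 3 libraries for 34 (54.8%), replicate 2 for 17 (27.4%) and replicate 3 for 11 (17.7%). Over all 16797 tested genes the shares were 40.8%, 25.3% and 33.9%, so that replicate 1 was most often the highest there too. Along the second principal component of all tested genes, which holds 6.87% of the variance, WT DIFF replicate 1 had the highest score of the 10 libraries, 43.5. This component also separates the labels, with WT libraries at 3.75 to 43.5 and those labelled p27KO at -34.8 to -7.05. Sema4a (15.3 CPM against 5.76 and 4.07), Sema5a (146 against 53.4 and 71.0), Ephb1 (145 against 62.9 and 78.0) and Plxnb3 (26.3 against 8.08 and 9.45) were among the members highest in it. What sets this library apart was not tested.

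L1cam, an adhesion molecule of growing axons that modulates semaphorin signals, was outside the rule for named genes because of its low mean, and was chosen after its values were seen. It was at 0.0521, 0.0798 and 0.277 CPM in WT PRO and 9.82, 4.43 and 1.74 CPM in WT DIFF, and at 0.289 and 0.246 CPM in PRO and 2.81 and 6.66 CPM in DIFF under the p27KO label. In counts, the PRO libraries had 1, 2 and 6 in WT and 7 and 5 under the p27KO label, so that it was tested only through DIFF and its fold change rests on few PRO reads. The stages did not overlap in either genotype, with a log2 fold change of 5.12 ± 0.81 in WT (SE; edgeR, BH-adjusted p = 4.4e-04) and 4.01 ± 0.91 in p27KO (adjusted p = 0.00489).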
